A study of Homo sapiens with 4 samples.

Results

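The 37 genes described here encode the core machinery of macroautophagy, from the kinase complex that starts an autophagosome to the receptors that carry cargo into it. They were taken by symbol from a deposited table of 57820 genes, in which all 37 symbols were found, each on a single row. The cells were of U87, a long-established glioma line of human origin. The shGlud1 group carried short hairpin RNA against GLUD1, the gene of mitochondrial glutamate dehydrogenase, and the shNT group carried a control, with 2 libraries in each. Cells of all 4 libraries had spent 6 h in low glucose, so the controls shared that treatment, and no library is labelled as from full glucose. Only a single hairpin against GLUD1 is labelled. Separate cultures are not stated for a group's libraries, so p-values cover only the spread between libraries, which may be technical.

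In macroautophagy a cup-shaped membrane grows around part of the cytoplasm, closes into an autophagosome and fuses with the lysosome, where the contents are broken down. The ULK kinase complex starts the process, and a class III phosphatidylinositol 3-kinase complex then marks the membrane with a lipid. ATG9 vesicles, ATG2 and WIPI proteins supply and shape the membrane, and ubiquitin-like conjugation enzymes attach proteins of the LC3 and GABARAP family to it. Cargo receptors such as SQSTM1 (p62) bind both ubiquitin and LC3 and are degraded with their cargo. In glioma cells, as in most cells, autophagy is known to respond to a shortage of glucose or amino acids. RNA levels do not measure the rate at which autophagosomes are formed or cleared.

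Sequence from the promoters of 4 genes is shown because they carry the changes described below: the receptors SQSTM1 and CALCOCO2, which moved in opposite directions, and the LC3 family members GABARAPL1 and MAP1LC3B, which fell. The windows are the 250 bases before the RefSeq start on GRCh38.p14. For SQSTM1 and CALCOCO2 the longest stretch outside annotated exons is printed, at chr5:179806335-179806392 and chr17:48830785-48830987. In GABARAPL1 and MAP1LC3B the motif lay in an annotated exon, where exons of any gene on either strand were counted. There 30 bases around the motif are printed, at chr12:10212836-10212865 and chr16:87392280-87392309. All are plus strand, and capitals mark matches to the motifs described after the sequences.
SQSTM1: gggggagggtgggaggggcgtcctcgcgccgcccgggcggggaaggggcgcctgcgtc
CALCOCO2: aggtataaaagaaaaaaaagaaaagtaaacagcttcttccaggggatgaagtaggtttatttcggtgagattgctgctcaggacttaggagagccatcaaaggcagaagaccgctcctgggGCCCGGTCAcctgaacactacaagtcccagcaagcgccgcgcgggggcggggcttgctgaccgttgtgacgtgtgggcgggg
GABARAPL1: ggctcgcggggTGACGTCAcagcccgacgc
MAP1LC3B: gcgagtcaccTGACCAGGCtgcgggctgag
The capitals in CALCOCO2 and MAP1LC3B are the core of the antioxidant response element bound by NRF2, TGACNNNGC, read on the minus strand in CALCOCO2. Those in GABARAPL1 are a cyclic AMP response element of the kind bound by ATF and CREB factors, searched as TGACGTNA after this sequence had been seen. No motif searched was found in the 250 bases before SQSTM1. Of the 37 genes 33 had a RefSeq promoter, and motifs were searched on both strands of the 250 bases. The antioxidant core was in 2 of the 33 windows (6.06%, against 10.9% of 35114 promoters). The E-box CACGTG, bound by TFEB among others, was in those of ATG3 and ATG14 (6.06%, against 6.35%). The heat shock element pair GAANNTTC was in those of TAX1BP1 and GABARAPL2 (6.06%, against 5.78%). The composite element core of ATF4 and CHOP, TGATGNAA, was in 0 of 33, against 3.14% of all promoters. TGACGTNA was in 4 of 33 (12.1%, against 2.67%), in ATG3, ATG10, VMP1 and GABARAPL1, of which ATG3 rose, GABARAPL1 fell and the other 2 did not pass the test. The GABARAPL1 match was known before the search and raises the 12.1%, so these 2 shares are not a fair comparison.

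Libraries held between 16546849 and 18537314 expected counts. GLUD1, the targeted gene, went from 1066 and 1171 expected counts in shNT to 680 and 1026 in shGlud1. Its log2 fold change was -0.98 (SE 0.13, adjusted p = 1.26e-12 in edgeR's quasi-likelihood test), and -0.45 when libraries were scaled by total counts. Among 10 markers of glioma cells, VIM, CD44, TNC and SPARC were abundant, while SOX2 was at 0 in every library and GFAP, S100B and OLIG2 had at most 6 counts. Of 23 markers of leukocytes, endothelial, epithelial and neuronal cells, 22 were analysed and 3 averaged at least 5 CPM, namely CD68, KRT8 and GAD1. Summed levels were lower in shGlud1 for the leukocyte list (360 to 402 CPM in shNT, 276 to 290.3 CPM in shGlud1), the epithelial list (38.4 to 39.6, then 22.5 to 27.2) and the neuronal list (36.3 to 38.6, then 18.2 to 19.9). They were higher for the glioma list (3747 to 4057, then 6247 to 6791) and the endothelial list (0.915 to 1.17, then 1.35 to 1.95). VIM made up most of the glioma sum, at means of 2352 CPM in shNT and 4675.5 CPM in shGlud1. NES and SPARC rose as well, while CD44, TNC and CHI3L1 were not called. Of the endothelial list only KDR was tested, and it was not called (log2 fold change 1.43, adjusted p = 0.0534). CD68, KRT8 and GAD1 made up most of the lower sums, while CLDN4 of the epithelial list (1.11) and RBFOX3 of the neuronal list (1.80) rose by log2 fold change. The part of these markers in the results was not tested. In bulk RNA fewer cells of a kind and less RNA per cell cannot be told apart. CPM (counts per 1000000) is scaled with TMM factors, which are set so that the typical gene is level between libraries. With these factors the median log2 fold change of all 14616 genes tested was 0.06, and it was 0.57 when libraries were scaled by total counts, so every change below is best read relative to that median.

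Autophagy genes changed in both directions. All 37 passed the filter on low counts, 15 rose and 8 fell at an adjusted p under 0.05 in edgeR's quasi-likelihood test. The share called, 62.2%, was near that of all genes tested, of which 61% were called, 31.9% as higher and 29.1% as lower. By role the share called ran from 25% of 4 initiation genes to 80% of 5 cargo receptor genes. The counts by role below are best read beside the shares of all genes. The members' median log2 fold change was 0.05, against 0.06 for all genes. Under total counts 24 members rose and 3 fell, where 65.6% of all genes tested were called (51.9% higher, 13.7% lower), and the median was 0.57 for the members and 0.57 for all genes. Without shNT replicate 1 the calls numbered 17, where 46.1% of all genes tested were called. Values of the 2 groups did not overlap for 32 of the 37 genes, against 81% of all genes tested. Of the 23 calls, 11 held in the same direction under all 14 alternatives of scaling, filtering, test and libraries: PIK3C3, PIK3R4, UVRAG, AMBRA1, ATG4A, ATG7, NBR1 and CALCOCO2 rose, and WDR45, GABARAPL1 and SQSTM1 fell.

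**Figure D1:**
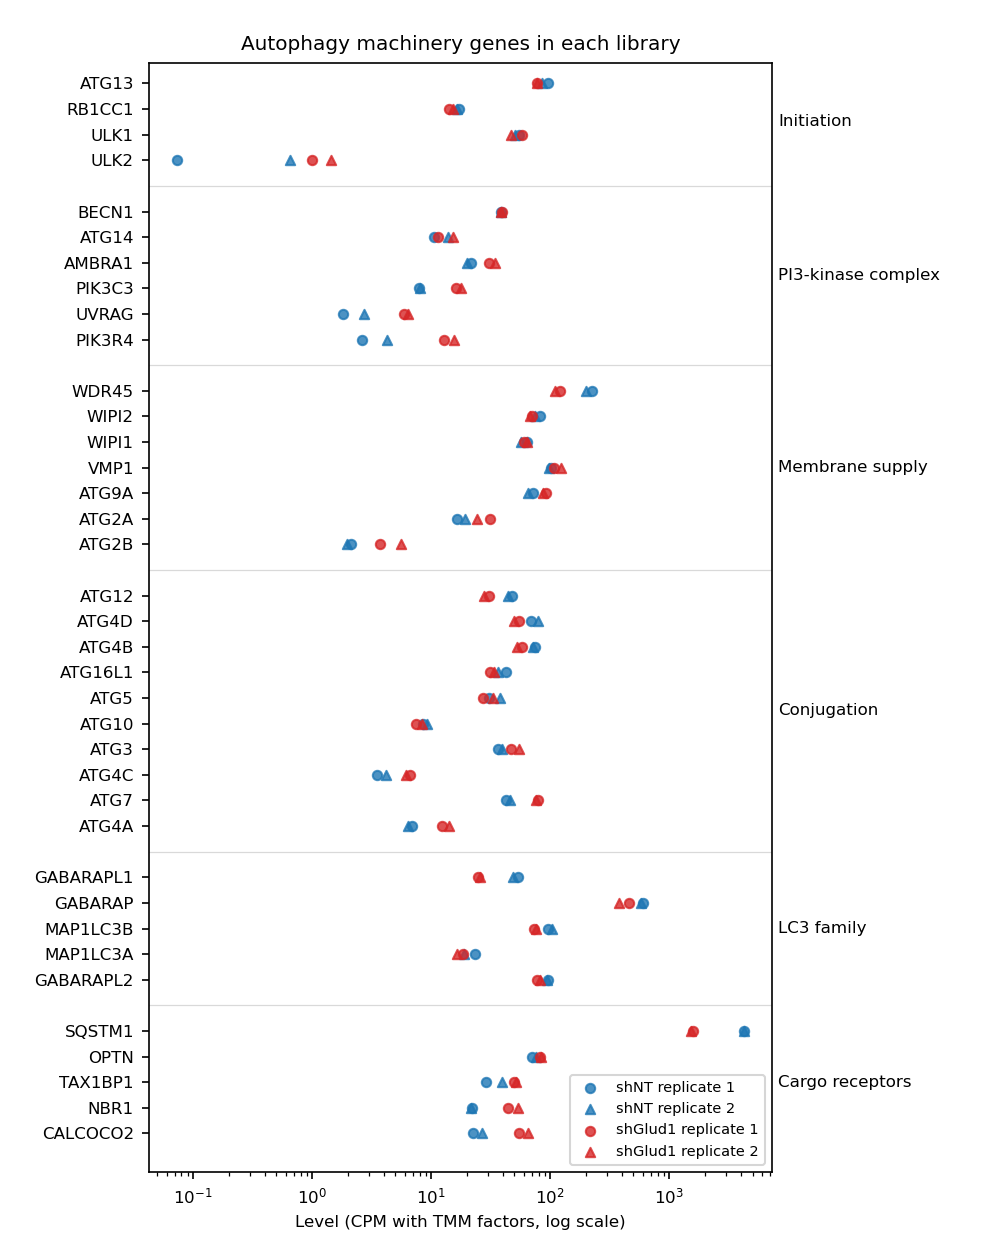
Level of each of the 37 autophagy genes (CPM with TMM factors, log axis) in the 4 libraries, grouped by role; blue points are shNT, red points shGlud1, circles replicate 1 and triangles replicate 2. SQSTM1 lies above all others at 4213 and 4222 CPM in shNT and at 1569 and 1509 CPM in shGlud1, and the red points lie to the right for PIK3R4, UVRAG, PIK3C3, NBR1 and CALCOCO2.

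The cargo receptors, which tether ubiquitinated cargo to the growing membrane, spanned the widest range of log2 fold changes of the 6 roles, from -1.45 to 1.27. SQSTM1 fell, while NBR1, CALCOCO2 and TAX1BP1 rose and OPTN did not pass the test. SQSTM1 (ENSG00000161011, GRCh38 chromosome 5, 179806398 to 179838078) encodes p62, which binds ubiquitin chains, gathers them into bodies and also holds the NRF2 inhibitor KEAP1. Its level was 4213 and 4222 CPM in shNT and 1569 and 1509 CPM in shGlud1. Both shGlud1 values lay far below both shNT values (log2 fold change -1.45, SE 0.17, adjusted p = 4.81e-16). The fall was -0.94 under total counts and -1.35 with a trend on transcript length removed. SQSTM1 alone took 0.348% and 0.357% of all shNT counts, more than the other 36 genes together (0.18% in each), and 0.18% and 0.188% of shGlud1 counts, less than the 0.229% and 0.241% of the other 36.

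NBR1 (chromosome 17, 43170481 to 43211689), a receptor related to p62 in its domains, was at 22.05 and 21.4 CPM in shNT and at 44.3 and 53.7 CPM in shGlud1. The groups were well apart (log2 fold change 1.17, SE 0.14, adjusted p = 2.28e-15). CALCOCO2 (chromosome 17, 48830988 to 48866522) encodes NDP52, a receptor for bacteria and damaged mitochondria. Its levels were 22.4 and 26.9 CPM in shNT and 54.7 and 64.5 CPM in shGlud1, a log2 fold change of 1.27 (SE 0.14, adjusted p = 1.28e-18). Its rise was the most significant of the 37 genes by adjusted p. TAX1BP1, which encodes a receptor of the same family as NDP52, was at 29.1 and 39.3 CPM in shNT and at 50.0 and 51.3 CPM in shGlud1. The shGlud1 libraries were again the higher (0.56, SE 0.14, adjusted p = 0.000102), but without shNT replicate 1 the value was 0.36 (adjusted p = 0.112). OPTN, the optineurin gene, was at 69.8 and 75.7 CPM in shNT and at 81.3 and 83.1 CPM in shGlud1. Its difference of 0.18 did not pass (adjusted p = 0.234), although under total counts it did (0.69).

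Ratios of counts within a library need no scaling factor. There were 191 and 197 SQSTM1 counts for each NBR1 count in shNT and 35.4 and 28.1 in shGlud1, a 6.11-fold lower mean ratio. For each CALCOCO2 count there were 188 and 157 SQSTM1 counts in shNT and 28.7 and 23.4 in shGlud1. The same ratio to TAX1BP1 was 145 and 107 in shNT and 31.4 and 29.4 in shGlud1. To OPTN it was 60.3 and 55.7 in shNT and 19.3 and 18.2 in shGlud1. In all 4 ratios, which share SQSTM1, both shGlud1 libraries lay below both shNT libraries. Per kilobase of the longest annotated transcript, SQSTM1 made up 97.4% and 97.03% of the summed level of the 5 receptors in shNT and 89.8% and 88.5% in shGlud1. It thus remained the most abundant receptor transcript in every library.

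**Figure D2:**
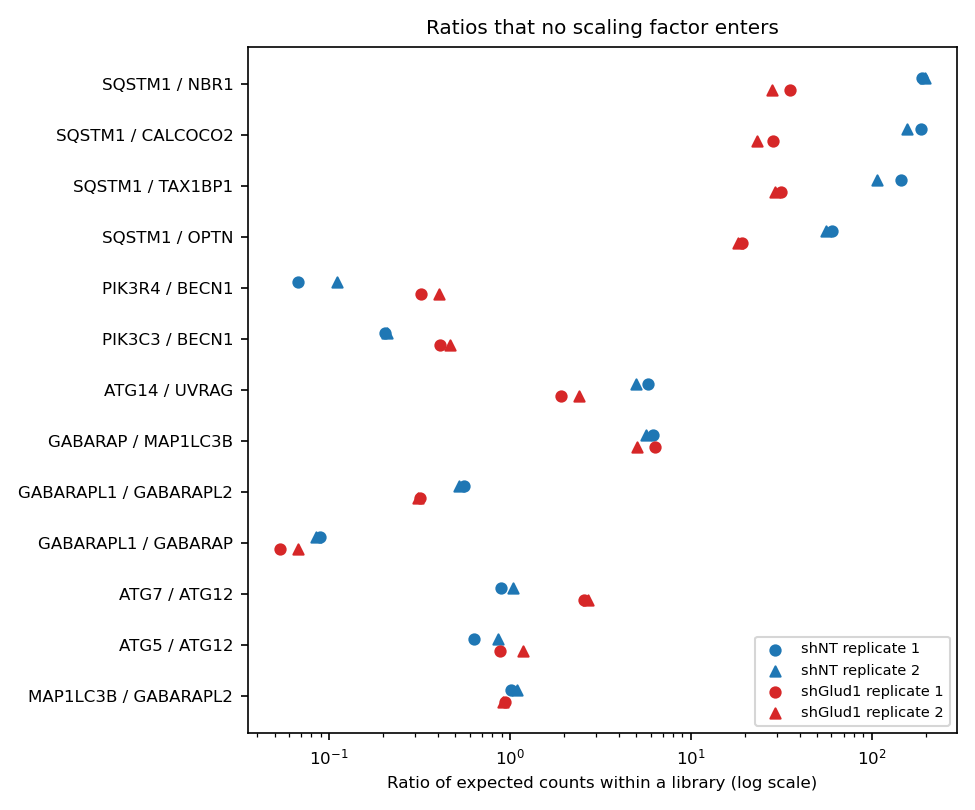
Ratios of expected counts of gene pairs within each library (log axis); blue is shNT, red shGlud1, circles replicate 1 and triangles replicate 2. The groups are apart in 12 of the 13 pairs, all but GABARAP over MAP1LC3B (6.20 and 5.65 in shNT, 6.32 and 5.05 in shGlud1). The pairs were chosen by hand and several share a gene, and the CPM of 81% of all genes tested did not overlap between groups either. SQSTM1 over NBR1 is at 191 and 197 in shNT and at 35.4 and 28.1 in shGlud1. PIK3R4 over BECN1 is at 0.068 and 0.111 in shNT and at 0.323 and 0.407 in shGlud1.

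Members of the LC3 and GABARAP family, the small ubiquitin-like proteins that are attached to the membrane lipid and bind the receptors, came from 5 genes, of which 3 fell, 2 did not pass and 0 rose, at a median log2 fold change of -0.42. The share called was 60%, against 61% of all genes tested. With the length trend removed 2 fell and the median was 0.044. Under total counts only GABARAPL1 fell and GABARAPL2 rose, and the median was 0.095, which is -0.48 relative to all genes, as with TMM factors. GABARAPL1 (chromosome 12, 10212458 to 10223130) was at 53.3 and 49.01 CPM in shNT and at 24.7 and 25.5 CPM in shGlud1. Both shGlud1 libraries were well below both controls (-1.03, SE 0.14, adjusted p = 1.23e-12), and the value was -0.99 with the length trend removed and -0.51 under total counts. Per count of its relative GABARAPL2 there were 0.560 and 0.524 counts of GABARAPL1 in shNT and 0.317 and 0.309 in shGlud1, with no overlap. The ratio of GABARAP to MAP1LC3B did overlap, at 6.20 and 5.65 in shNT and 6.32 and 5.05 in shGlud1.

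GABARAP (chromosome 17, 7240014 to 7242770), the most abundant of the family, was at 596.8 and 580.2 CPM in shNT and at 461 and 380.2 CPM in shGlud1 (-0.48, SE 0.15, adjusted p = 0.00222). This call was lost without either shNT library (adjusted p = 0.0933 and 0.0618), and with the length trend removed the value was 0.044. MAP1LC3B, which encodes LC3B, the usual marker protein of autophagosomes, was at 96.3 and 102.7 CPM in shNT and at 73.0 and 75.2 CPM in shGlud1. The controls were the higher (-0.42, SE 0.13, adjusted p = 0.0023), with an adjusted p of 0.0854 without shNT replicate 2. Its near-identical copy MAP1LC3B2 held 12.1 to 26.02 counts in any library, and how reads were divided between them is uncertain. GABARAPL2 was at 95.2 and 93.5 CPM in shNT and at 78.0 and 82.5 CPM in shGlud1 (-0.23, adjusted p = 0.105). MAP1LC3A, the LC3A gene, was at 23.2 and 18.8 CPM in shNT and at 18.5 and 16.6 CPM in shGlud1 (-0.25, adjusted p = 0.166). For both the groups did not overlap, but the difference did not pass, and with the length trend removed the values were 0.11 and 0.30. With length and GC trends removed MAP1LC3A was called as higher (0.64, adjusted p = 1.49e-05). Per kilobase, GABARAP made up 77.8% of the family's summed level in each shNT library and 78.5% and 74.6% in the shGlud1 libraries.

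The class III phosphatidylinositol 3-kinase complex makes the lipid phosphatidylinositol 3-phosphate. Its genes moved upward or did not pass: 4 of 6 rose and 0 fell, at a median of 0.87. PIK3R4 (chromosome 3, 130678935 to 130746829), which encodes the regulatory subunit VPS15, showed the largest rise of the 37 genes in edgeR with TMM factors and all libraries, though in limma-voom and without shNT replicate 2 ULK2 stood higher (2.12 against 2.05, and 3.94 against 2.43). It was at 2.64 and 4.25 CPM in shNT and at 12.7 and 15.7 CPM in shGlud1, a log2 fold change of 2.03 (SE 0.23, adjusted p = 6.07e-18). The groups were far apart, although the shNT counts were only 36 and 65. UVRAG (chromosome 11, 75815167 to 76143195), the subunit of the complex that acts at endosomes and later steps, was at 1.83 and 2.74 CPM in shNT and at 5.90 and 6.34 CPM in shGlud1 (1.41, SE 0.28, adjusted p = 2.07e-06). The catalytic subunit gene PIK3C3, which encodes VPS34, rose by 1.10 and the beclin regulator AMBRA1 by 0.64, or by 0.54 and 0.34 with the length trend removed and 1.62 and 1.16 under total counts. BECN1, the beclin 1 gene, and ATG14, the subunit that directs the complex to autophagosomes, did not pass, at 0.01 (SE 0.14) and 0.13 (SE 0.19). Under total counts all 6 rose, and with the trends on length and GC share removed BECN1 was called as lower (-0.41, adjusted p = 0.000937).

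Ratios of RNA counts within a library differed between the groups for these genes, and they do not measure proportions of the proteins. They also keep the trend on transcript length, and with that trend removed PIK3C3 was at 0.54 instead of 1.10. There were 0.068 and 0.111 PIK3R4 counts for each BECN1 count in shNT and 0.323 and 0.407 in shGlud1, a 4.08-fold higher mean ratio. PIK3C3 stood at 0.203 and 0.210 counts for each BECN1 count in shNT and at 0.410 and 0.467 in shGlud1. ATG14 and UVRAG join the complex in place of each other, and the ratio of ATG14 to UVRAG counts was 5.8 and 5 in shNT and 1.92 and 2.42 in shGlud1. None of these 3 ratios overlapped between the groups, and neither did the CPM of 81% of all genes tested.

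In the initiation complex, in which the ULK kinases, ATG13 and RB1CC1 (FIP200) receive the signals of mTORC1 and AMPK, 1 of 4 genes rose and 0 fell. That gene, ULK2, was the least abundant of the 37 per kilobase, with 1 and 10 counts in shNT and 20 and 33 in shGlud1, or 0.073 and 0.65 CPM against 1.00 and 1.43 CPM. Its log2 fold change of 1.68 (SE 0.60, adjusted p = 0.00959) rested on these few counts, and it ran from 0.89 without shNT replicate 1 (adjusted p = 0.3) to 3.94 without shNT replicate 2 (adjusted p = 0.0023). The call was also lost without shGlud1 replicate 2 (1.40, adjusted p = 0.183), in DESeq2 (adjusted p = 0.118), with the length trend removed (1.30, adjusted p = 0.0517) and with length and GC trends removed (1.14, adjusted p = 0.0897). ULK1, the main kinase of the pair, was at -0.01 (SE 0.13), ATG13 at -0.23 (SE 0.13) and RB1CC1 at -0.20 (SE 0.17), and none passed. Under total counts ULK1 (0.51) and ATG13 (0.29) passed on the higher side. With the length trend removed ULK1 (-0.29), ATG13 (-0.38) and RB1CC1 (-0.66) were called as lower, so the side on which these 3 genes lay depended on the processing.

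Among genes that supply and shape the membrane, 3 of 7 rose and 1 fell (57.1% called, against 61% of all genes tested). WDR45 (chromosome X, 49071470 to 49101170), which encodes the lipid-binding WIPI4, was at 226 and 201 CPM in shNT and at 121 and 109 CPM in shGlud1. The libraries of the 2 groups were well apart (-0.90, SE 0.13, adjusted p = 1.4e-10), and the value under total counts was -0.38. Both ATG2 lipid transfer genes rose. ATG2B was at 2.12 and 1.96 CPM in shNT and at 3.70 and 5.60 CPM in shGlud1 (1.19, SE 0.30, adjusted p = 0.000254). ATG2A was at 16.6 and 19.2 CPM in shNT and at 31.5 and 24.5 CPM in shGlud1 (0.64, SE 0.16, adjusted p = 0.000103). With the length trend removed neither call held (ATG2B 0.62, adjusted p = 0.0671, and ATG2A 0.22, adjusted p = 0.213). With length and GC trends removed ATG2A was called at 0.62 and ATG2B was not (0.47, adjusted p = 0.156). ATG2B was also not called without shGlud1 replicate 2 (0.86, adjusted p = 0.0594), and at 13684 bases ATG2B had the longest transcript of the 37. ATG9A, which encodes the lipid scramblase of the seed vesicles, rose by 0.39 (SE 0.13, adjusted p = 0.00538), with an adjusted p of 0.186 without shNT replicate 2. WIPI1 (0.05), WIPI2 (-0.18) and the scramblase gene VMP1 (0.22) did not pass, and their calls depended on the setting. Under total counts all 3 were called as higher (0.57, 0.34 and 0.75). WIPI1 also rose once trends on length (0.51) or on length and GC share (0.42) were removed, and WIPI2 was called as lower with the length trend removed (-0.35). VMP1 was also called without shGlud1 replicate 1 (0.29, adjusted p = 0.0328).

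The conjugation enzymes join ATG12 to ATG5 and LC3 proteins to lipid. Among their 10 genes 4 rose and 3 fell, at a median of -0.18 (70% called, against 61% of all genes tested). The group was mixed even within gene families: of the 4 ATG4 proteases, which trim LC3 proteins, ATG4A and ATG4C rose while ATG4B and ATG4D fell. ATG4A (chromosome X, 108091668 to 108154671) was at 6.96 and 6.40 CPM in shNT and at 12.3 and 14.1 CPM in shGlud1 (0.99, SE 0.21, adjusted p = 5.75e-06, and 1.51 under total counts). ATG4D was at 69.0 and 78.2 CPM in shNT and at 54.5 and 49.3 CPM in shGlud1 (-0.51, SE 0.13, adjusted p = 0.000285). ATG4D did not keep its direction: it was at 0.010 under total counts and was called as higher with the trends on length and GC share removed (0.28, adjusted p = 0.0156). With only the length trend removed it was at -0.062 and not called (adjusted p = 0.695). Without shNT replicate 2 its adjusted p was 0.0558. ATG4B (-0.41) was at 0.11 under total counts and -0.097 with length and GC trends removed (adjusted p = 0.439), and not called in either. ATG4C (0.72) was not called in DESeq2 (adjusted p = 0.0781). Without shNT replicate 1 the adjusted p was 0.0872 for ATG4B and 0.115 for ATG4C.

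ATG7 (chromosome 3, 11272309 to 11557665), the E1-like enzyme that activates both ATG12 and LC3 proteins, was at 42.7 and 46.3 CPM in shNT and at 78.6 and 75.4 CPM in shGlud1. It was higher in both shGlud1 libraries (0.79, SE 0.13, adjusted p = 1.15e-08, and 1.31 under total counts). ATG12 (chromosome 5, 115828200 to 115841858), a ubiquitin-like substrate of ATG7, was at 47.8 and 44.4 CPM in shNT and at 30.8 and 27.9 CPM in shGlud1 (-0.65, SE 0.14, adjusted p = 7.41e-06). Under total counts its fall was -0.14 and not called (adjusted p = 0.416). There were 0.893 and 1.042 ATG7 counts for each ATG12 count in shNT and 2.55 and 2.71 in shGlud1. The E2-like ATG3, which transfers LC3 to lipid, rose by 0.42 (SE 0.13), and its adjusted p rose to 0.112 when shNT replicate 1 was left out and to 0.0567 when shGlud1 replicate 2 was. ATG5 (-0.18), ATG16L1 (-0.27) and the E2-like ATG10 (-0.17) did not pass. ATG16L1 was called as lower with RLE factors (-0.33), with the length trend removed (-0.40) and with length and GC trends removed (-0.49). The RPS23 gene overlaps ATG10 by 374 exonic bases on the other strand and had 18608 to 43166 counts, against 117 to 193 for ATG10, so reads of the 2 genes within those 374 bases cannot be told apart in these unstranded libraries.

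**Figure D3:**
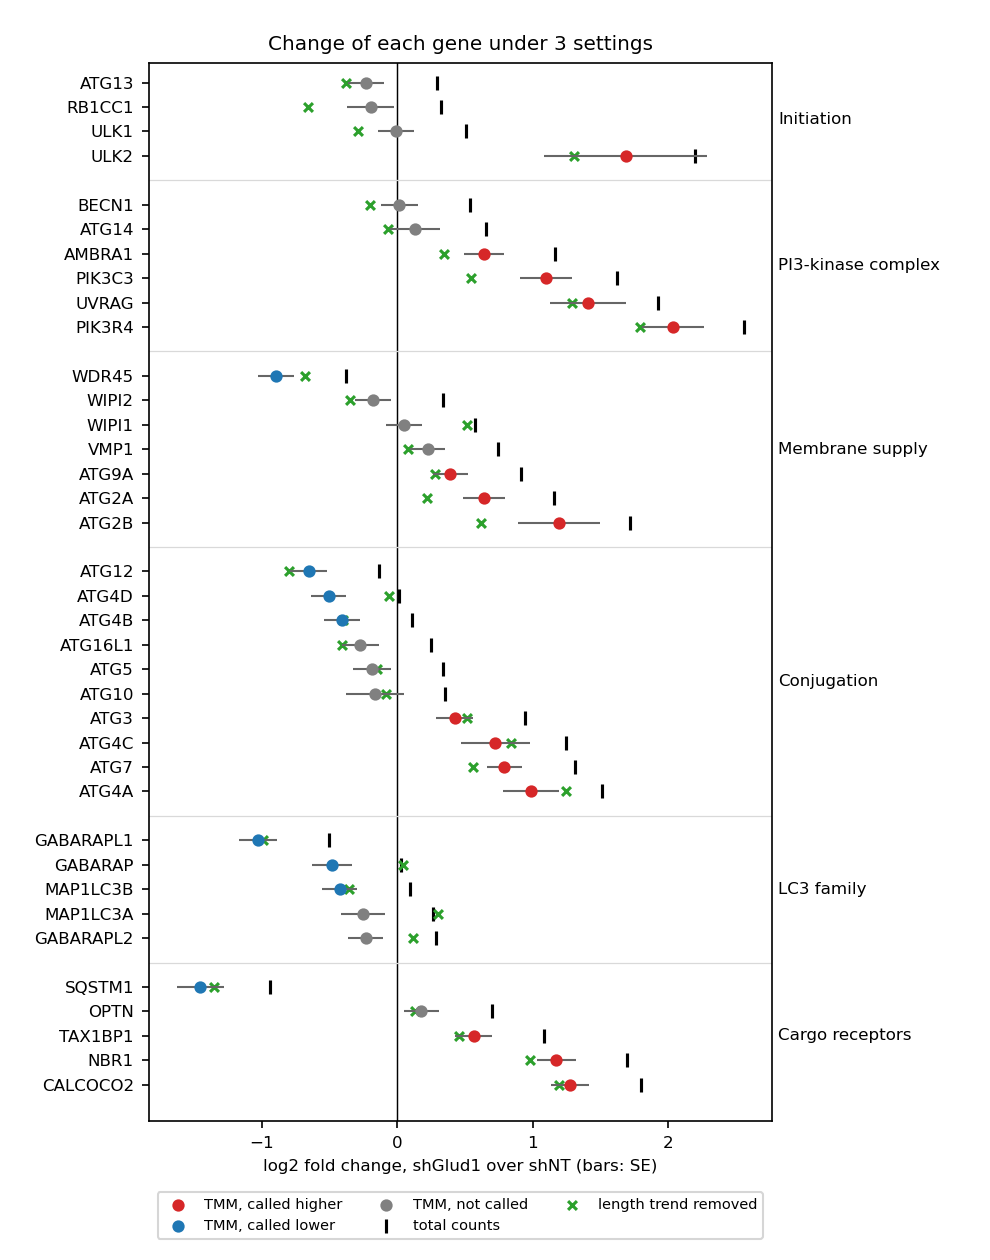
Log2 fold change of each gene, shGlud1 over shNT, with its SE (bars), coloured red where called higher, blue where called lower and grey where not called; black ticks give the value under total counts and green crosses the value with the length trend removed. SQSTM1 at -1.45, GABARAPL1 at -1.03 and WDR45 at -0.90 stay left of 0 in all 3 settings, while GABARAP, MAP1LC3B, ATG4B and ATG4D reach or pass 0 under total counts.

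Exons of 21 of the 37 genes overlap those of another annotated gene, and the libraries did not keep strand. Of the 11 genes named above as called under all alternatives, SQSTM1 overlaps MRNIP by 1582 bases, and MRNIP had 453 to 607 counts against at least 31404 for SQSTM1. It also overlaps MGAT4B by 105 bases, which had 2296 to 4433 counts. ATG7 overlaps VGLL4 by 1596 bases, and VGLL4 had 432 to 588 counts against 583 to 1738 for ATG7. WDR45 overlaps PRAF2 by 757 bases on the same strand, and PRAF2 had 734 to 923 counts against at least 2419. NBR1 overlaps AC060780.1 by 463 bases, GABARAPL1 overlaps AC115676.1 by 329, and UVRAG overlaps UVRAG-DT by 240 and AP002340.1 by 138. These partners had at most 9 counts in any library. For ATG2B (29.2 to 129 counts) the overlapping GSKIP held more counts (330 to 500.2). Counts of 14 of the 37 genes were not whole in at least 1 library.

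Transcript length moved with these changes. Over the 37 genes the log2 fold change and the longest transcript had a Spearman correlation of 0.49 (Pearson 0.48 on log length), given as a description of genes from the same 4 libraries. Over the 14266 genes tested with a length it was 0.45 (Pearson 0.40), a value close to theirs. Median transcript length was 2274 bases for the LC3 family, 3124.5 for conjugation genes and 4940 for the kinase complex, against 3374.5 for all genes tested. Genes that fell had transcripts of 1634 to 4333 bases and genes that rose of 2501 to 13684 bases. With the length trend removed 13 of the 37 rose and 11 fell, and all genes tested were called at 55.9% (31.6% higher, 24.3% lower). In that setting the kinase complex still had 4 risen and 0 fallen genes at a median of 0.44, and the LC3 family 0 risen and 2 fallen at a median of 0.044.

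**Figure D4:**
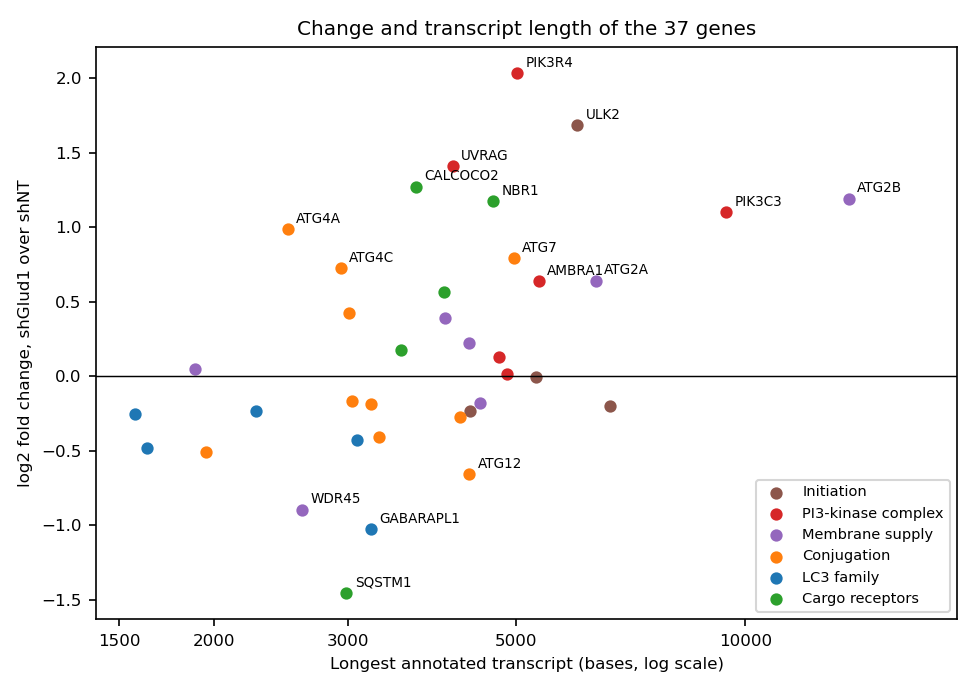
Log2 fold change of the 37 genes, shGlud1 over shNT, against the length of their longest annotated transcript (log axis), coloured by role, with symbols at changes of at least 0.6 in size. LC3 family genes lie at the left below 0 (median length 2274 bases) and kinase complex genes to the right (median 4940 bases), while SQSTM1 (2986 bases), GABARAPL1 (3214 bases) and ATG4A (2501 bases) are of similar length and lie at -1.45, -1.03 and 0.99.

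Genes of the pathway outside this set were mixed as well. In 4 further lists 51 of 56 genes were tested, and 15 rose and 16 fell, at a median of 0.06. The share called was 60.8%, against 61% of all genes tested, whose median was also 0.06. Under total counts 33 rose and 7 fell (78.4% called), at a median of 0.58. In that setting 65.6% of all genes tested were called (51.9% higher, 13.7% lower), at a median of 0.57. Of 11 other core and regulatory genes 4 rose, among them TBC1D5 (1.51) and TRAPPC8 (1.00), which act in ATG9 traffic, and 4 fell, among them TMEM41B (-0.69), a scramblase gene related to VMP1 in function. The largest fall called there was that of ATG101 (-1.06), listed as C12orf44, which encodes the partner of ATG13 in the ULK complex. It went from 412 and 457 CPM in shNT to 229 and 186 CPM in shGlud1. MAP1LC3B2, with 12.1 to 26.02 counts, was at -1.07 and not called (adjusted p = 0.0583). Of 14 genes of fusion with the lysosome 3 rose, among them the tethers EPG5 (1.73) and VPS39 (0.68), and 3 fell, among them the SNARE genes YKT6 (-0.74) and VAMP8 (-1.002). Under total counts neither SNARE gene was called, nor was TMEM41B, and with length and GC trends removed TRAPPC8 was not called (adjusted p = 0.0539).

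Of 16 tested receptors of selective autophagy and their partners 4 rose and 6 fell (62.5% called, against 61% of all genes tested). The mitophagy receptor BNIP3L rose by 1.02 and the ferritin receptor NCOA4 by 0.78, while the mitochondrial PHB2 fell by 1.09 and the ubiquitin-binding TOLLIP by 1.08. Of 10 genes for transcription factors and their regulators that act on autophagy genes 4 rose and 3 fell (70% called). ATF4, a driver of the amino acid stress response, went from 1061 and 956 CPM in shNT to 293 and 283 CPM in shGlud1 (-1.81, SE 0.15, adjusted p = 8.84e-30). DDIT3, which encodes CHOP, went from 745 and 763 CPM to 71.2 and 73.1 CPM (-3.39). FOXO3 (1.04) and NFE2L2 (0.80), which encodes NRF2, rose. The lysosomal regulators TFEB and TFE3 did not pass the test at 0.36 and 0.24.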

How the data were processed

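The deposited values are expected counts, that is, reads estimated for each gene (20.1% of those above 0 were not whole), in 57820 rows with human Ensembl IDs and symbols. The submitters' processing notes name Bowtie 0.12.2 and mm8, a mouse build, so the build behind these human rows is uncertain. The counting program is not given in the sources used here. Per the labels' protocols, poly-A RNA was made into TruSeq V2 libraries with 12 cycles of PCR and no molecular identifiers are mentioned, and this kit does not mark strand.

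Counts were rounded. The filterByExpr step (minimum count 10) left 14616 genes, whose groups were compared in edgeR 4.0.16 (R 4.3.3) with TMM factors and the robust quasi-likelihood test, with no block. P-values were adjusted over all of them (Benjamini-Hochberg) and called under 0.05. SE is the absolute log2 fold change over the square root of F. Replicates differed by more than sampling noise (chi-square per degree of freedom 5.87 for shNT, 15.1 for shGlud1).

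Alternatives were DESeq2 1.42.0, limma-voom (limma 3.58.1), scaling by upper-quartile or RLE factors or by total counts, no filter on low counts, at least 1 CPM in 2 libraries, the replicate block, each library left out, and removal of smooth trends (lowess, span 0.3) on transcript length, or length and GC share, from GENCODE 29 (GRCh38), which also gave gene positions and exon overlaps. Promoters came from RefSeq (GRCh38.p14). The 37 genes and all lists were chosen with earlier results of these data known. Values in each library are given for GLUD1, for LC3 family and cargo receptor genes, and for up to 2 largest rises and 2 largest falls called in each other role. Of each further list up to 2 genes that rose and 2 that fell were named by lowest p. Values of ATG101 in each library, the value of MAP1LC3B2, and mentions of TFEB, TFE3 and MITF, were added after their values were seen. Figures were drawn in Python 3.11.15 with matplotlib 3.10.9.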

Additional observations from a re-analysis of the deposited data

How the results depend on the processing

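The members' median log2 fold change (0.05) lay near 0 and moved with scaling. It was -0.0058 with RLE factors, -0.0060 in DESeq2, 0.57 under total counts, 0.099 with no filter on low counts, 0.11 with the length trend removed and 0.10 with length and GC trends removed, and 0.00093 to 0.074 with a library left out. The difference from the all-gene median (-0.0067) was 0.036 with no filter, 0.014 with the length trend removed and -0.042 with length and GC trends removed, and -0.080 to 0.023 with a library left out. Under total counts 13 members changed sign: ULK1 0.51, RB1CC1 0.32, ATG13 0.29, WIPI2 0.34, ATG4B 0.11, ATG4D 0.010, ATG5 0.34, ATG10 0.35, ATG16L1 0.25, MAP1LC3A 0.26, MAP1LC3B 0.095, GABARAP 0.030 and GABARAPL2 0.29. With the length trend removed BECN1 was at -0.20, ATG14 at -0.072, MAP1LC3A at 0.30, GABARAP at 0.044 and GABARAPL2 at 0.11. With length and GC trends removed ULK1 was at 0.100, BECN1 at -0.41, ATG14 at -0.30, ATG4D at 0.28, MAP1LC3A at 0.64 and OPTN at -0.096. BECN1 and WIPI1 were at -0.040 and -0.0058 with RLE factors and at -0.040 and -0.0060 in DESeq2, and ULK1 at 0.014 with upper-quartile factors and 0.041 with no filter. With a library left out ULK1 ran from -0.19 to 0.15, BECN1 from -0.020 to 0.038, ATG14 from -0.10 to 0.33 and WIPI1 from -0.040 to 0.14. The cause of these changes was not tested. The count of members called ran from 17 without shNT replicate 1 (46.1% of all genes tested called there) to 27 under total counts (65.6%), against 23 (61%), and that of the further pathway genes from 25 to 40, against 31. With a library left out, the remaining library of that group was assumed to vary like the others. With the replicate number as a block 23 members were called, 15 rose and 8 fell, and the block changed no member's call. The labels do not say what a number marks. Differences between replicates 1 and 2 correlated at 0.041 between groups over 14616 genes. With 1 difference per group, this cannot tell whether libraries of the same number were paired. Genes with few counts, such as ULK2 and UVRAG, limit what this depth can show.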
